A study of Caenorhabditis elegans with 24 samples.

Results

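The 10 genes of the semaphorin, plexin and ephrin families of Caenorhabditis elegans were followed across 8 groups of cells, out of 46778 gene IDs in the count table. They were chosen by symbol as the semaphorins smp-1, smp-2 and mab-20, the plexins plx-1 and plx-2, the Eph receptor vab-1 and the ephrins vab-2, efn-2, efn-3 and efn-4. All 10 had rows in the table and all 10 passed the filter on low counts. The cells came from wild-type hermaphrodites that carry a Venus label in the distal tip cell (DTC), the somatic cell at the end of each gonad arm that leads the arm's migration and holds the germline stem cells. The groups were Venus-positive cells, called DTC here, and non-fluorescent cells, called other cells here, each at late L3, early L4, late L4 and the adult stage. Each group had 3 libraries of polyadenylated RNA. The labels name neither the promoter that drives Venus nor whether the 3 samples of a group are separate cultures, and every p-value here therefore speaks for the scatter of these samples alone, which may be technical. Animals were raised on OP50 bacteria, and all groups share the wild-type genotype and the Venus label.

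Semaphorins are guidance proteins and plexins are their receptors. In worms the transmembrane semaphorins SMP-1 and SMP-2 act through PLX-1, and the secreted semaphorin MAB-20 acts through PLX-2, in sorting epidermal cells and male tail rays and in axon guidance. Ephrins are held at the cell surface by a lipid anchor and bind Eph receptor tyrosine kinases on neighbouring cells. VAB-1 is the only Eph receptor of the worm, and its ephrins VAB-2, EFN-2, EFN-3 and EFN-4 are known from neuroblast migration and the closing of the embryonic epidermis. EFN-4 has also been placed with MAB-20 and PLX-2.

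Total counts ran from 8391423 to 18045720 per library, and levels are given as CPM, the counts scaled to a common total. The niche gene lag-2, a defining DTC gene, stood at 28.9 to 298 CPM in the 12 DTC libraries and at 0 to 4.09 CPM in the 12 libraries of other cells. The library of other cells at late L3, replicate 3, stood apart from its group, with a score of -19.16 on the first principal component against 114.36 and 107.51 for replicates 1 and 2. Over 8 sperm markers it summed to 708 CPM, against 1.18 and 4.99 CPM in replicates 1 and 2. Other cells at early L4 summed to 1431 to 2220 CPM over the 8 sperm markers. What sets this late L3 library apart was not tested. Adult DTC libraries had summed levels of 1395 to 2096 CPM over 9 DTC markers, all detected, and of 26019 to 92182 CPM over 8 intestine markers, all detected. Over the same markers, adult other cells summed to 779.9 to 1328 CPM for DTC and 8457 to 20823 CPM for intestine. Over 14 neuron markers the sums overlapped between DTC and other cells at late L3 and late L4. At early L4 they were 1294 to 1424 CPM in DTC and 785 to 946 CPM in other cells, the stage of largest mab-20 difference, and in adults 1169.5 to 1387 CPM in DTC and 1759 to 2277 CPM in other cells. The part of the cells behind these marker sums in the results was not tested. In bulk libraries such as these, fewer cells of a type and less RNA per cell cannot be told apart.

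Per unit of exon length, smp-1, mab-20 and vab-1 had the 3 highest mean levels in DTC and in other cells at all 4 stages. At late L4 the order in DTC, in TPM, which divides by exon length and scales to a common total, was smp-1 at 149.8 ± 8.43, vab-1 at 93 ± 14.6, mab-20 at 52.4 ± 3.04 and vab-2 at 14.8 ± 0.96 (mean ± SD, n = 3). The libraries of these 4 genes did not overlap each other. Below them efn-2 stood at 5.53 ± 3.6 TPM and plx-1 at 2.76 ± 1.26 TPM, whose libraries overlapped. The remaining plx-2, efn-4, efn-3 and smp-2 averaged 1.18 ± 0.929, 0.846 ± 1.38, 0.524 ± 0.776 and 0.471 ± 0.684 TPM and overlapped. At early L4 mab-20 led in DTC with 187 ± 8.89 TPM, ahead of smp-1 at 85.4 ± 4.68 TPM and vab-1 at 64.8 ± 12.5 TPM, without overlap. At late L3 mab-20 in DTC stood at 104 ± 65.3 TPM, smp-1 at 53.3 ± 21.7 TPM and vab-1 at 50.5 ± 7.76 TPM, and neighbours in that order overlapped. In adult DTC mab-20 at 17.4 ± 6.88 TPM and smp-1 at 17.2 ± 1.96 TPM overlapped, and vab-1 followed at 9.41 ± 1.27 TPM. In other cells at late L4 the first 3 were mab-20 at 15.5 ± 4.94, vab-1 at 12.2 ± 1.32 and smp-1 at 6.63 ± 3.58 TPM, of which mab-20 overlapped both others.

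**Figure D1:**
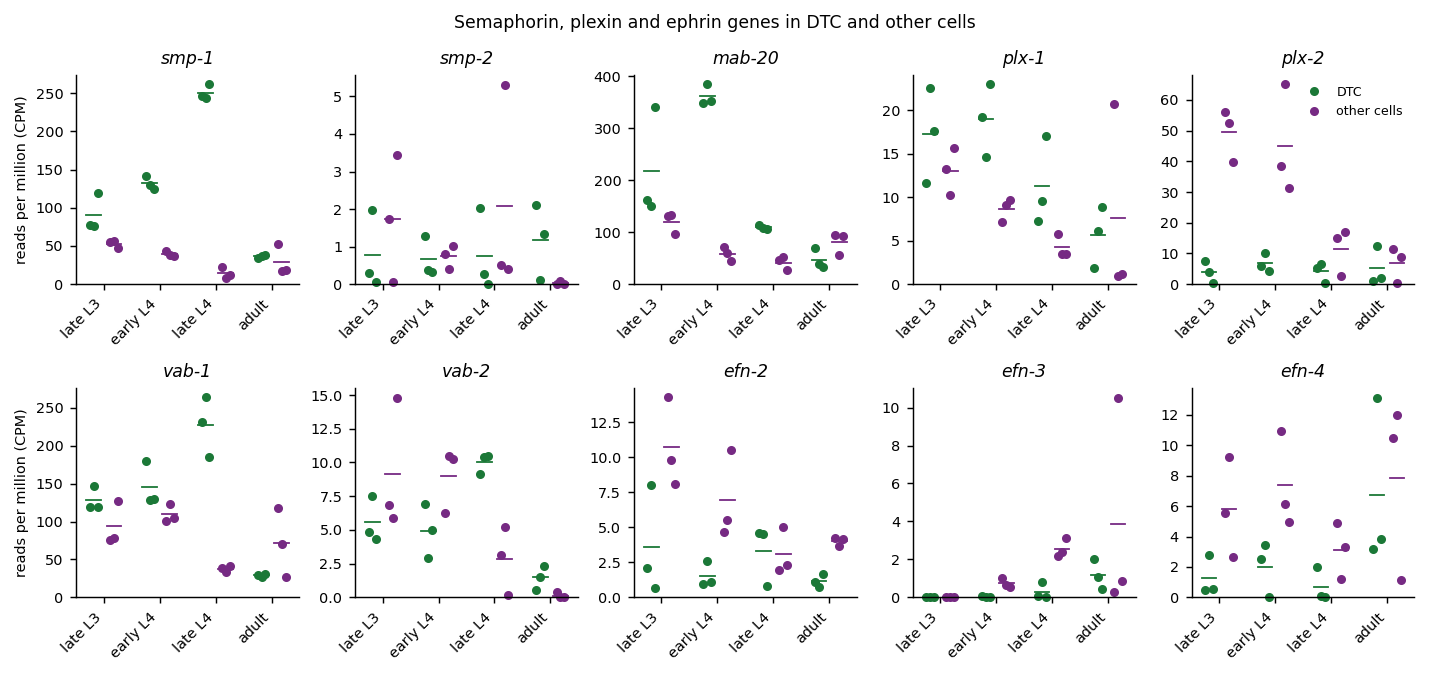
Level of each of the 10 genes in CPM (linear axes starting at 0, scaled per gene) at 4 stages, with DTC in green left of other cells in purple. Each point is 1 of 3 libraries and each line is the group mean; smp-1 at late L4 sits at 244 to 262 CPM in DTC, above all libraries of other cells.

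Across the comparisons of DTC with other cells, smp-1, mab-20 and vab-1 were the members called at both L4 stages, and all were higher in DTC. Calls rest on a Benjamini-Hochberg adjusted p under 0.05 over the 16887 genes tested with edgeR. Fold changes are given as log2 of DTC over other cells ± standard error, after trimmed-mean scaling of the libraries. That error was derived as the absolute log2 fold change divided by the square root of the edgeR F statistic. In the mean of the 4 stages 5 of 10 members were higher, where 16.3% of all genes were, and plx-2 was the 1 lower, where 14.3% of all genes were. The median log2 fold change of the members in that mean was 0.95, and that of all genes was -0.14. At late L3 the 1 member called was plx-2, which was lower, where 7.33% of all genes were; the members' median was -0.58 over the 9 members with counts and -0.03 over all genes. At early L4 and at late L4, 3 members were called, all of them higher, where 9.40% and 9.19% of all genes were. The members' medians there were 0.06 and 1.04, and those of all genes -0.35 and -0.14. In adults vab-2 was the 1 member called and was higher, where 8.19% of all genes were, with a median of 0.03 against 0.11 over all genes.

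**Figure D2:**
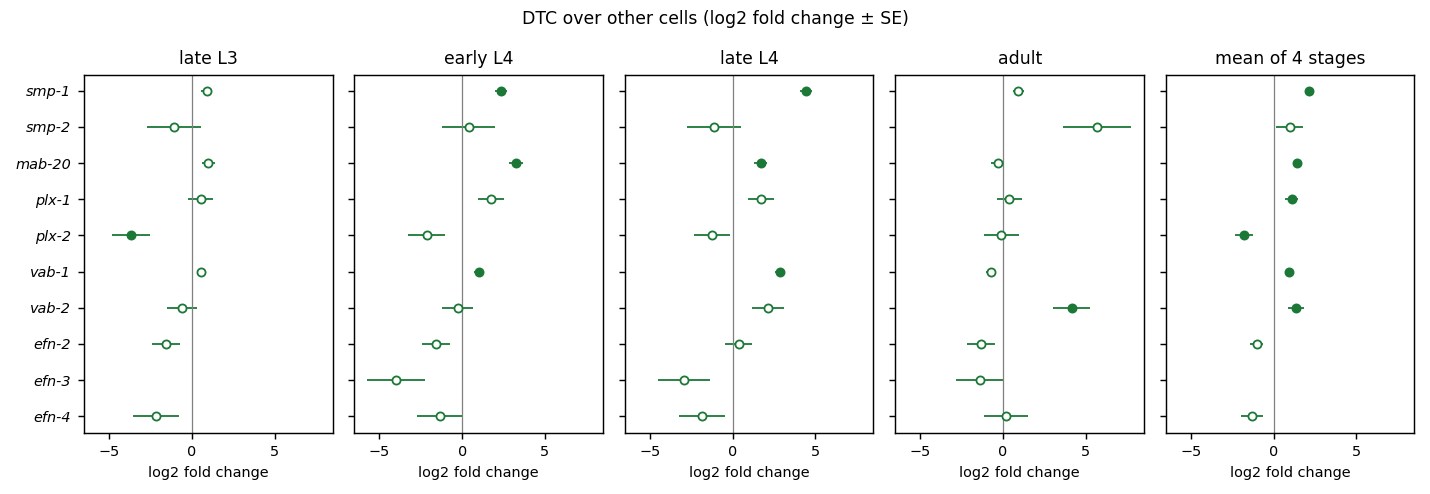
Log2 fold change of DTC over other cells for the 10 genes at each stage and in the mean of the 4 stages. Bars are 1 standard error, derived from the edgeR F statistic (3 libraries per group). Filled points were called and open points were not, and plx-2 is the called gene left of 0. No point is drawn for efn-3 at late L3, where all libraries had 0 counts, nor in the mean, where its error (3360) was too large to plot.

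The transmembrane semaphorin gene smp-1 was higher in DTC at both L4 stages and in the mean of the 4 stages (log2 fold change 2.15 ± 0.18, adjusted p = 1.32e-08). At late L3 it read 77.7, 75.9 and 119.24 CPM in DTC and 54.6, 57 and 47.9 CPM in other cells, and at early L4 142, 130.2 and 125 CPM in DTC and 43.9, 37.6 and 37.4 CPM in other cells. At late L4 the values were 247, 244 and 262 CPM in DTC and 22.4, 7.94 and 12.1 CPM in other cells. The groups did not overlap at any larval stage, and at late L4 the values were the highest of any stage in DTC while those of 2 of 3 other-cell libraries were the lowest. At that stage 7 markers of gonadal sheath and spermatheca, all detected, summed to 1258 to 1640.2 CPM in DTC and 269 to 383 CPM in other cells, and to 621 to 771 CPM in early L4 DTC. Of these markers, inx-8 and inx-9 are also on the list of DTC markers. The part of the 7 markers in the late L4 values of smp-1 and vab-1 was not tested. In adults the libraries overlapped, at 34.7, 37.2 and 38.4 CPM in DTC and 52.9, 16.8 and 18.6 CPM in other cells. The log2 fold change was 0.92 ± 0.34 at late L3 (adjusted p = 0.0783, not called), 2.33 ± 0.35 at early L4 (adjusted p = 0.000106) and 4.43 ± 0.39 at late L4 (adjusted p = 2.92e-07). In adults it was 0.91 ± 0.34 (adjusted p = 0.0809, not called). The difference between DTC and other cells varied with stage (adjusted p = 0.000341). This gene lies at I 14807462 to 14815753 on ce11, and 3.65% of its exon bases are shared with a gene on the opposite strand.

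The secreted semaphorin gene mab-20 was also higher in DTC at both L4 stages and in the mean (1.40 ± 0.19, adjusted p = 1.26e-05), with its largest difference at early L4. In DTC it read 162, 151 and 341 CPM at late L3, 349, 385 and 352 CPM at early L4, 114, 107 and 107 CPM at late L4 and 68.9, 38.4 and 33.1 CPM in adults. In other cells the values were 132, 132 and 97.3 CPM at late L3, 70.8, 59.6 and 44.6 CPM at early L4, 45.6, 51.6 and 26.8 CPM at late L4 and 93.6, 57 and 91.9 CPM in adults. DTC libraries lay above other cells at the larval stages without overlap, while the adult libraries overlapped. The late L3 DTC library with 341 CPM was more than 2 times as high as either of its replicates. The log2 fold change was 3.23 ± 0.42 at early L4 (adjusted p = 1.77e-05) and 1.70 ± 0.39 at late L4 (adjusted p = 0.00559). At late L3 it was 1.01 ± 0.38 (adjusted p = 0.0864) and in adults -0.33 ± 0.38 (adjusted p = 0.623), neither of them called. The late L4 call was lost without other cells at late L4, replicate 3 (1.24, adjusted p = 0.0822). The difference between DTC and other cells varied with stage for mab-20 too (adjusted p = 0.00222). Its position is I 1644588 to 1651457.

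The second transmembrane semaphorin gene, smp-2, at I 3666490 to 3671700, was near the limit of detection. At late L3 it held 5, 26 and 1 counts in DTC and 28, 1 and 59 in other cells, and at early L4 16, 7 and 5 in DTC and 14, 7 and 18 in other cells. At late L4 it held 24, 3 and 0 in DTC and 6, 65 and 5 in other cells, and in adults 37, 1 and 12 in DTC and 0, 1 and 0 in other cells. Libraries of 1 group differed by more than 10 times in several groups, and edgeR called smp-2 in no comparison. In adults the sums were 50 counts in DTC and 1 in other cells (adjusted p = 0.0735), a difference that DESeq2 called.

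Among the semaphorins, the lead passed from mab-20 to smp-1 in DTC between early and late L4. The share of each gene in the family's TPM within a library does not depend on scaling between libraries. In DTC smp-1 made up 37.4, 38.2 and 30.4% at late L3 and 33.5, 29.6 and 30.7% at early L4. It made up 72.5, 73.9 and 75.3% in late L4 DTC and 37.7, 54.6 and 57.9% in adult DTC. The late L4 libraries lay above all 9 other DTC libraries. In other cells smp-1 made up 33.7, 34.9 and 37% at late L3, 43.3, 43.8 and 50.4% at the next stage, 37.6, 14.5 and 35.5% at late L4 and 41.3, 26.8 and 20.1% among adult libraries. At late L3 the shares in DTC and other cells overlapped, at early L4 those in DTC were lower, and at late L4 they were higher. With 3 libraries a group an exact two-sided permutation test cannot go below p = 0.10, so these shares are given without a test.

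**Figure D3:**
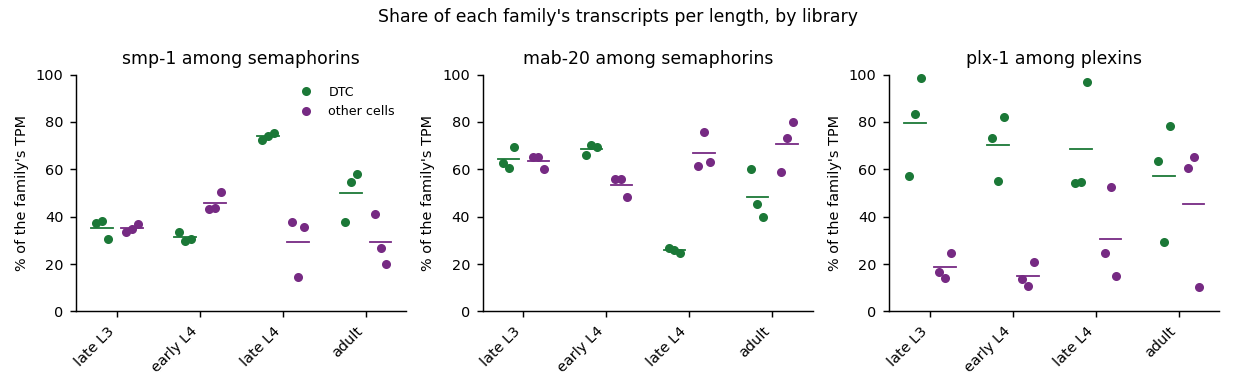
Share of smp-1 and mab-20 in the summed TPM of the 3 semaphorins, and of plx-1 in that of the 2 plexins, in percent per library at 4 stages (DTC green, left; other cells purple; lines are means of 3 libraries). In DTC at late L4 smp-1 took 72.5% to 75.3%, and in larval DTC plx-1 took 54.2% to 98.3%.

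The plexins pointed in opposite directions. The PLX-1 receptor gene, plx-1, read 11.7, 22.5 and 17.6 CPM at late L3, 19.2, 14.7 and 23 CPM at early L4, 7.32, 9.54 and 17 CPM at late L4 and 1.89, 6.08 and 8.93 CPM in adults in DTC. In other cells it read 13.2, 10.3 and 15.6 CPM at late L3, 7.11, 9.1 and 9.73 CPM at early L4, 5.8, 3.52 and 3.47 CPM at late L4 and 20.7, 0.903 and 1.22 CPM in adults. DTC libraries lay above other cells at early and late L4, and the groups overlapped at late L3 and in adults. In the joint edgeR model no single stage was called, with fold changes of 1.75 ± 0.77 at early L4 (adjusted p = 0.172) and 1.70 ± 0.77 at late L4 (adjusted p = 0.175). At early L4 limma voom and an edgeR fit of the 2 groups alone called plx-1. In the mean of the 4 stages plx-1 was higher (log2 fold change 1.09 ± 0.38, adjusted p = 0.0351). That call was lost under relative log expression (RLE) scaling, without the low-count filter and in 13 of 24 fits that left out 1 library, where the fold change ran from 0.72 to 1.44 and the adjusted p reached 0.16. The 13 included all adult DTC libraries and adult other cells, replicates 2 and 3. With the replicate number as a block its adjusted p was 0.0505. The gene lies at IV 959521 to 984395.

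The MAB-20 receptor gene plx-2 was lower in DTC, with the widest gap at late L3. It read 7.39, 3.79 and 0.25 CPM in DTC and 55.9, 52.5 and 39.8 CPM in other cells at late L3, and 5.91, 10.2 and 4.23 CPM in DTC and 38.3, 65 and 31.3 CPM in other cells at early L4. Neither pair of groups overlapped. At late L4 the values were 5.21, 6.71 and 0.447 CPM in DTC and 14.9, 2.7 and 16.9 CPM in other cells, and in adults 0.914, 12.3 and 2.09 CPM in DTC and 11.3, 0.411 and 8.86 CPM in other cells, with overlap at both stages. The log2 fold change was -3.67 ± 1.17 at late L3 (adjusted p = 0.043), a call that was lost in 12 of 24 fits that left out 1 library, among them each of the 6 libraries of that stage (-4.59 to -3.26, adjusted p up to 0.128). It was -4.59 without DTC replicate 1 (adjusted p = 0.055) and -3.88 without replicate 3 of other cells, the library that stood apart (adjusted p = 0.0566). Early L4 was not called by the joint edgeR model (-2.14 ± 1.10, adjusted p = 0.248), whereas limma voom and an edgeR fit of the 2 groups alone called it. In the mean of the 4 stages plx-2 was lower (-1.79 ± 0.54, adjusted p = 0.0171), and the call held in all 24 fits that left out 1 library. Hypodermis and cuticle markers, of which 11 of 11 were detected in both groups, summed to 1042, 1883 and 94.5 CPM in DTC and 9634, 10382 and 1284 CPM in other cells at late L3, in the same library order as above. At that stage 8 body wall muscle markers summed to 2017 to 4574 CPM in DTC and 12009 to 17188 CPM in other cells, and 4 glia markers to 55.2 to 75.8 CPM in DTC and 161 to 253 CPM in other cells, with none at 0 in either group. The part of these markers in the plx-2 result was not tested. Per length, plx-1 made up 57.2, 83.4 and 98.3% of the plexins in DTC and 16.6, 14.2 and 24.9% in other cells at late L3, without overlap. The gene lies at II 14417855 to 14424891.

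The Eph receptor gene vab-1 was higher in DTC at both L4 stages and in the mean (0.93 ± 0.14, adjusted p = 4.4e-05). In DTC it read 119.39, 147 and 118.99 CPM at late L3, 179.8, 128 and 130.2 CPM at early L4, 231, 264 and 185 CPM at late L4 and 28.9, 27.5 and 30.9 CPM in adults. In other cells it read 76.1, 78.4 and 127 CPM at late L3, 101, 123 and 104 CPM at early L4, 39.3, 33.4 and 41.2 CPM at late L4 and 118, 70.4 and 27.3 CPM in adults. The groups were apart at both L4 stages and overlapped at late L3 and in adults. At late L3 only replicate 3 of other cells, the library that stood apart, reached the DTC range, at 127 CPM. In adults 2 of 3 libraries of other cells lay above all DTC libraries. At late L4 every DTC library was above 4 times the value of any library of other cells. The log2 fold change was 2.85 ± 0.30 at late L4 (adjusted p = 2.74e-06) and 1.01 ± 0.29 at early L4 (adjusted p = 0.0247). The early L4 call was lost under RLE scaling, without the low-count filter and in 12 of 24 fits that left out 1 library (0.70 to 1.19, adjusted p up to 0.247), among them replicates 1 and 3 of each fraction at that stage. With no scaling beyond library size it was 0.42 (adjusted p = 0.407). Late L3 (0.59 ± 0.28, adjusted p = 0.168) and adults (-0.72 ± 0.29, adjusted p = 0.0973) were not called. The difference varied with stage (adjusted p = 0.000193). The gene lies at II 4572000 to 4590970.

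Of the ephrins, vab-2 had the highest mean level per length in larval DTC, at 14.8 ± 0.96 TPM at late L4, where its receptor vab-1 had 93 ± 14.6 TPM. In DTC the ephrin gene vab-2 read 4.87, 7.51 and 4.31 CPM at late L3, 6.94, 2.94 and 4.97 CPM at early L4, 9.17, 10.4 and 10.5 CPM at late L4 and 0.572, 1.55 and 2.32 CPM in adults. In other cells it read 6.85, 5.87 and 14.8 CPM at late L3, 6.27, 10.5 and 10.2 CPM at early L4, 3.11, 5.24 and 0.165 CPM at late L4 and 0.379, 0 and 0 CPM in adults. DTC libraries were above other cells at late L4 and in adults and overlapped them before. The adult difference was called (log2 fold change 4.15 ± 1.12, adjusted p = 0.0188), on 10, 13 and 21 counts in DTC, 44 in all, and 5 counts in other cells, all of the 5 in replicate 1. Without that library, other cells had 0 counts of vab-2 and the call stayed (adjusted p = 0.00713; its fitted 7.80 depends on the prior count), while it was lost without DTC replicate 3 (3.40, adjusted p = 0.0805), other cells replicate 2 (3.50, adjusted p = 0.0689) or replicate 3 (3.50, adjusted p = 0.0578). With no scaling beyond library size the adult call was lost too (3.435, adjusted p = 0.0519). The mean of the 4 stages was called at 1.36 ± 0.48 (adjusted p = 0.0375), but over the larval stages alone it was 0.38 (adjusted p = 0.531). It was lost in 17 of 24 fits that left out 1 library, where it ran from 1.00 to 2.10 and was highest without adult other cells, replicate 1, again against 0 adult counts. The call of the mean was also lost under RLE scaling, without the low-count filter and with no scaling beyond library size. With the replicate number as a block its adjusted p was 0.0554. Its position is IV 3761195 to 3766826.

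The other ephrins read low in larval DTC, and edgeR called none of the 3 in any comparison of DTC with other cells. DESeq2 called all 3 in the mean of the 4 stages. For efn-3 that mean takes in late L3, where every library had 0 counts, and its derived edgeR error was 3360 in log2 units. For efn-2 the values were 2.12, 8.04 and 0.687 CPM in DTC and 14.3, 9.81 and 8.1 CPM in other cells at late L3, and 0.958, 2.61 and 1.07 CPM in DTC and 4.69, 5.53 and 10.5 CPM in other cells at early L4, without overlap at either stage. In adults efn-2 read 1.09, 0.715 and 1.65 CPM in DTC and 4.24, 3.7 and 4.2 CPM in other cells, also apart. At late L4 efn-2 overlapped, at 4.62, 4.5 and 0.82 CPM in DTC and 1.93, 4.99 and 2.31 CPM in other cells. The gene lies at IV 10576350 to 10578288. Its mean over stages was -1.02 ± 0.41 (adjusted p = 0.0671), which passed under RLE scaling. For efn-4, the early L4 libraries were apart at 2.55, 3.44 and 0 CPM in DTC and 11, 6.16 and 4.95 CPM in other cells, and those of the other stages overlapped. At late L4 efn-4 held 24, 1 and 0 counts in DTC and 58, 15 and 40 in other cells. At late L3 it read 0.459, 2.81 and 0.562 CPM in DTC and 5.54, 9.25 and 2.68 CPM in other cells. In adults it read 3.2, 13.1 and 3.86 CPM in DTC and 10.5, 12 and 1.15 CPM in other cells. In adult DTC efn-4 had the highest mean of the ephrins per length, at 6.07 ± 4.64 TPM. Its position is IV 559234 to 568147.

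The ephrin gene efn-3, at X 13475876 to 13477456, was not seen at late L3. It had 0 counts in all 3 DTC and all 3 other-cell libraries of that stage, where 3 counts over a group would be 0.0643 CPM in DTC and 0.0585 CPM in other cells. At early L4 it held 1, 0 and 0 counts in DTC and 18, 11 and 10 in other cells, and at late L4 1, 9 and 0 counts in DTC and 26, 29 and 38 in other cells. The groups did not overlap at either stage. In adults the counts were 35, 9 and 4 in DTC and 4, 128 and 11 in other cells. The test across stages passed for efn-3 in DTC (adjusted p = 0.0106) and in other cells (adjusted p = 0.0272), and did not pass over the larval stages alone. About 5.84% of its exon bases are shared with tre-4 on the opposite strand, and the strand setting of the counting is not known.

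Counted by library rather than by test, members stood apart in both directions. At late L3 DTC libraries were all above other cells for 2 members and all below for 2, where 34.3% of all genes stood apart either way. At early L4 they were above for 4 members and below for 4, where 56.0% of all genes stood apart. At late L4 they were above for 5 members and below for 1 (background 38.1%), and in adults above for 2 (12.5% of all genes) and below for 1 (12.5%). At early L4 the scale factors of other cells (1.40 to 1.47) exceeded those of DTC (0.858 to 0.997). At late L4 they did so too, at 1.05 to 1.15 in other cells and 0.873 to 0.975 in DTC. At both stages CPM of other cells, relative to DTC, therefore reads higher than on the scale of the fold changes. In adults the factors were 0.601 to 0.815 in DTC and 0.739 to 1.24 in other cells, with overlap.

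Within DTC the test across stages called 4 of the 10 members, a share near that of all genes (37.2%). The 4 were smp-1 (adjusted p = 0.000156), mab-20 (adjusted p = 0.00039), vab-1 (adjusted p = 2.77e-05) and efn-3, which was lost over the larval stages alone. Between late L3 and early L4 0 members were called by edgeR at the adjusted threshold (background 2.00%), and 1, mab-20, had an unadjusted p under 0.05. DESeq2 called 0 there and limma voom with sample weights called 2, smp-1 and mab-20. From early to late L4 mab-20 fell (-1.67 ± 0.39, adjusted p = 0.0136), where 1.77% of all genes were lower. Over that step smp-1 was at 0.98 ± 0.34 (adjusted p = 0.103), although its late L4 libraries all lay above those of early L4; DESeq2, limma voom and a fit of these groups alone called it. The fall of mab-20 was lost without late L4 DTC replicate 1 or replicate 2 (adjusted p up to 0.0864).

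Adult DTC held less smp-1 and vab-1 than late L4 DTC. The log2 fold change of adult over late L4 DTC was -2.32 ± 0.35 for smp-1 (adjusted p = 0.000278) and -2.49 ± 0.30 for vab-1 (adjusted p = 3.74e-05). These were the 2 members lower, where 6.12% of all genes were. Both calls held in all 24 fits that left out 1 library. Over the same step the 9 DTC markers summed to 1395 to 2096 CPM in adult DTC and 21429 to 23955 CPM in late L4 DTC, and the 8 intestine markers to 26019 to 92182 CPM in adult DTC and 1650.0 to 2349.8 CPM in late L4 DTC. All of these markers were detected in both groups, and their part in the falls was not tested.

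In other cells 5 of the 10 members differed among stages, where 15% of all genes did. They were smp-1, mab-20, vab-1, vab-2 and efn-3, with adjusted p from 0.00813 to 0.0272, and a fit of other cells alone called mab-20 and no other member. Leaving out 1 library lost mab-20 in 7, vab-1 in 4 and efn-3 in 3 of 24 fits (adjusted p up to 0.0988), and smp-1 and vab-2 in none. Between late L3 and early L4 0 members were called by edgeR (background 0.361%); 3 had an unadjusted p under 0.05, DESeq2 called 1 and limma voom called 4. From early to late L4 vab-1 was lower (-1.15 ± 0.29, adjusted p = 0.0389; background 0.243%). From late L4 to adult smp-1 (1.20 ± 0.34) and vab-1 (1.08 ± 0.29) were higher (background 2.05%) and vab-2 (-4.33 ± 1.12) was lower (background 4.65%). The fall of vab-1 was lost in 14 of 24 fits that left out 1 library, among them each of the 6 libraries of that step, and with a term for the replicate number (adjusted p = 0.0565 under that block). The adult calls of smp-1 and vab-1 were lost in 19 and 12 of those fits (adjusted p up to 0.301 and 0.241), and smp-1 was at 0.56 without adult replicate 1. Both calls were also lost under RLE scaling, without the low-count filter, with the groups fitted alone, by limma voom and with no scaling beyond library size. DESeq2 did not call smp-1 either. Ribosomal RNA genes took 11.2, 33.2 and 32.6% of counts in the adult libraries of other cells and 16.1, 14.5 and 7.25% in those of late L4, and its part in these steps was not tested. The step of vab-2 was lost without adult replicate 2 or 3 or late L4 replicate 1 or 2 (adjusted p up to 0.0863), and ran from -8.41 without adult replicate 1, again against 0 counts, to -3.56 without late L4 replicate 2.

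Of 35 genes listed as partners of these receptors or downstream of them, 18 were higher in DTC. The list was chosen with earlier results of these data known, so its counts beside the shares of all genes are descriptions and no test of the list. The list of partner and downstream genes, all of them tested, had 18 higher, where 16.3% of all genes were, in the mean of the 4 stages, with a median log2 fold change of 0.69 against -0.14 over all genes. The 6 with the largest absolute fold change among those called were mig-15 (2.98 ± 0.20), the worm Nck-interacting kinase, rap-1 (2.70 ± 0.20), a small GTPase of the kind that plexins switch off, and sdn-1 (2.53 ± 0.13), the cell-surface proteoglycan syndecan. They were followed by sax-7 (2.48 ± 0.16), an L1-type adhesion molecule, pak-1 (2.25 ± 0.22), a kinase downstream of Rac, and nck-1 (2.00 ± 0.15), an adaptor that binds Eph receptors. Adjusted p for these 6 ran from 2.07e-11 to 1.49e-07. By stage, 10 of 35 were higher in late L3 DTC (background 6.03%), 14 in early L4 DTC (9.40%), 15 in late L4 DTC (9.19%) and 5 in adult DTC (8.19%).

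**Figure D4:**
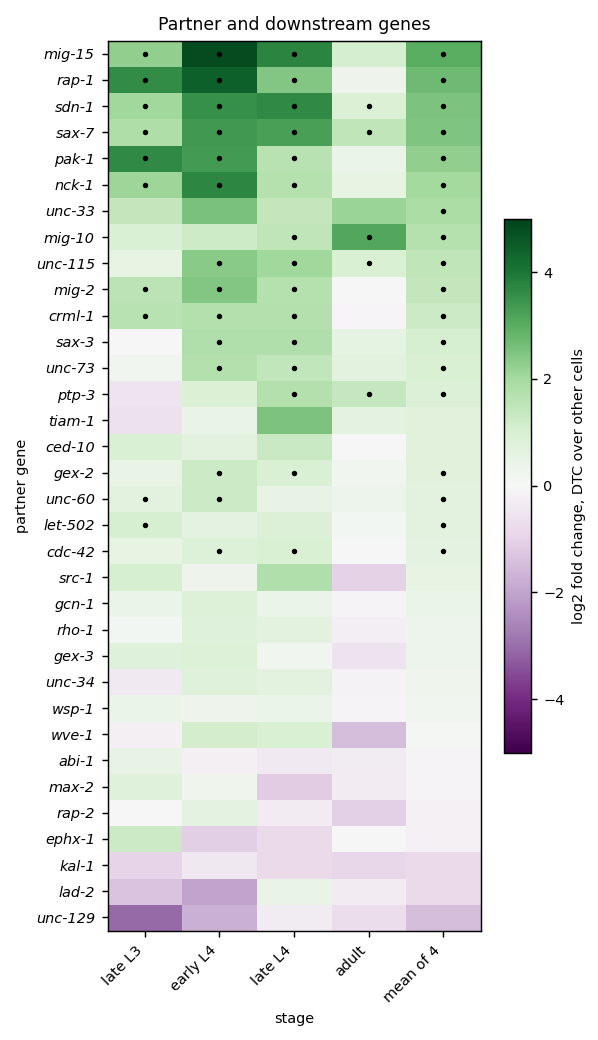
Log2 fold change of DTC over other cells (colour) for the partner and downstream genes reported (rows, ordered by the mean of the 4 stages) at each stage and in that mean, from edgeR. A dot marks a called gene; mig-15 leads the order, and the dots are fewest in adults.

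Over the 24 libraries, the genes whose log2 CPM ran most like smp-1 were F46H5.4, zer-1 and F13H10.5, with Pearson r of 0.941, 0.935 and 0.928. For mab-20 they were gdi-1, tag-196 and mbk-2 (0.929, 0.909 and 0.904), and for vab-1 tlk-1, mrps-14 and vps-15 (0.886, 0.883 and 0.858). For plx-1 they were arrd-22, nepr-1 and sut-1 (0.865, 0.865 and 0.861), for plx-2 noah-2, mab-21 and slc-17.8 (0.846, 0.836 and 0.825), and for vab-2 T13C2.3, gmeb-2 and the partner mig-10 (0.82, 0.814 and 0.801). These are descriptions over libraries that share 8 groups and, within each, depth and composition.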

How the data were processed

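The deposited table holds raw read counts per gene, whole numbers as the authors made them, for 46778 gene IDs in 24 libraries. Per the submitters' processing notes, the tools were FastQC, cutadapt, Bowtie2 and HTSeq with the ce11 build; their versions and the strand setting are unknown here. Reads that overlap a gene on the opposite strand cannot be told apart. Genes were kept by filterByExpr (16887), scaled by TMM and fitted in 1 quasi-likelihood model of 8 group means with edgeR 4.0.16 (R 4.3.3), which shares 1 estimate of the spread. Total counts of 8391423 to 18045720 put 3 counts, the detection limit used, well under 1 CPM per library. TPM used merged exon lengths of the WBcel235 annotation, the same assembly as ce11. DESeq2 1.42.0, limma 3.58.1 voom, RLE scaling, other filters, separate fits, the replicate number as a block and leaving out each library were alternatives; no scaling and larval stages alone were added after seeing the data.

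All 10 members are named. Of 36 listed partners 35 matched; 1 of these enters the counts and is otherwise not reported here, and the 6 of largest absolute fold change among those called are named, as are, for each member called in the mean, the 3 genes of highest Pearson r of log2 CPM. Members and lists were chosen with earlier results of these data known.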

Additional observations from a re-analysis of the deposited data

Results flagged for a closer look

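For 3 genes the difference between DTC and other cells itself differed among the 4 stages, by a test of that difference in edgeR, where 13.9% of all genes passed. For smp-1 the adjusted p was 0.000341, with log2 fold changes of 0.92 ± 0.34, 2.33 ± 0.35, 4.43 ± 0.39 and 0.91 ± 0.34 at late L3, early L4, late L4 and the adult stage. For vab-1 it was 0.000193, with 0.59 ± 0.28, 1.01 ± 0.29, 2.85 ± 0.30 and -0.72 ± 0.29 at the same stages. For mab-20 it was 0.00222, with 1.01 ± 0.38, 3.23 ± 0.42, 1.70 ± 0.39 and -0.33 ± 0.38. The order of stages differed between the genes, with the largest difference at late L4 for smp-1 and vab-1 and at early L4 for mab-20. All 3 passed over the larval stages alone, by DESeq2 and by limma voom.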

How the results depend on the processing

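No call of a member that has a direction reversed its sign under the alternatives run. The tests across stages and of the variation with stage have no sign and could not reverse. Over 33 results for single genes and 1063 alternative values, 900 kept the call and 163 lost it. Those values include fits that left out a library of a group not compared. The median of all genes in the mean of the 4 stages was -0.33 under RLE scaling, -0.50 with no scaling beyond library size and -0.14 under the trimmed-mean scaling used. Counts of members called moved as follows, with the cause not tested. At late L3 (1 called) the count was 0 with the groups compared alone, 4 by voom and 0 with no scaling. At early L4 (3) it was 5 with the groups alone and 6 by voom, and in adults (1) it was 3 by DESeq2 and 0 with the groups alone. Among DTC stages (4) voom called 7, and among stages of other cells (5) RLE gave 3, the groups alone 1, voom 8 and the larval stages 3. For the variation of the difference with stage (3) voom called 5. In DTC, early L4 against late L3 (0) had 2 by voom, late L4 against early L4 (1) had 3 by DESeq2, 2 with the groups alone and 3 by voom, and adult against late L4 (2) had 4 by DESeq2 and 4 by voom. In other cells, early L4 against late L3 (0) had 1 by DESeq2 and 4 by voom. Late L4 against early L4 (1) had 0 under RLE, 0 with no filter, 0 with the replicate block and 2 with no scaling. Adult against late L4 (3) had 1 under RLE, 0 with the groups alone, 0 by voom and 1 with no scaling. Without each library in turn the counts ran from 0 to 1 at late L3, 2 to 3 at early and at late L4, 0 to 2 in adults, 4 to 7 in the mean, 4 to 5 among DTC stages, 2 to 6 among stages of other cells and 3 to 4 for the variation with stage. Over the steps they ran from 0 to 1, 0 to 1 and 2 to 3 in DTC and from 0 to 1, 0 to 1 and 0 to 3 in other cells. Same-numbered libraries of the 2 fractions of a stage deviated together weakly (r of -0.058 to 0.248, over 0.1 in 5 of 12 pairs, each library closest to its own number in 7). Since not every pair was over 0.1, the numbers were not taken as pairs, although all 3 late L3 pairs were over it. The replicate block is a term shared by all groups and does not model pairs within a stage. At late L3 the block left 1 member called by edgeR, plx-2. Its adjusted p rounded to 0.05, at the threshold, and was 0.043 without the block. The replicate block gave 4 members called in the mean in place of 6, with plx-1 and vab-2 lost. Comparing groups alone does not apply to that mean or to the variation with stage.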

Other observations

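The ratio of smp-1 to vab-1 reads within a library does not depend on scaling between libraries. In DTC it was 0.651, 0.518 and 1.00 at late L3, 0.79, 1.02 and 0.96 at early L4, 1.07, 0.921 and 1.41 at late L4 and 1.2, 1.35 and 1.24 in adults. In other cells it was 0.717, 0.728 and 0.377 at late L3, 0.434, 0.306 and 0.359 at early L4, 0.568, 0.238 and 0.293 at late L4 and 0.447, 0.238 and 0.681 in adults. DTC libraries lay above other cells without overlap at early L4, late L4 and in adults, although the adult libraries of both genes overlapped in CPM. No test was run on this ratio, which was chosen after the values were seen.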
